A study of Homo sapiens with 6 samples.

Results

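The EphA receptors are the members of the Eph receptor tyrosine kinase family that bind mainly the ephrin-A ligands, and 9 of their genes (EPHA1 to EPHA8 and EPHA10) were followed here by chromatin accessibility. An ATAC-seq peak was counted for a receptor gene when its centre lay inside the gene body in GENCODE release 44, or when it lay outside all protein-coding genes and that gene had the nearest protein-coding start site. This gave 317 of the 152800 peaks of the hg38 peak set. The assay marks open chromatin, since the Tn5 transposase cuts and tags DNA where it can reach it. The cells were A375, a human melanoma line. Cells carrying a lentiviral empty vector (EV, 3 libraries) were compared with cells carrying lentiviral HMGB2 overexpression (HMGB2OE, 3 libraries). HMGB2 is a DNA-bending chromatin protein, and the comparison asks how its excess changes chromatin access. Each condition was a single stable line, and the study describes its 3 libraries as technical replicates of an experiment that was not repeated. The spread between libraries therefore measures technical error, and overexpression cannot be told apart from other differences between the lines.

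Eph receptors are activated by ephrins on neighbouring cells, and the signal runs through the receptor's kinase to the actin cytoskeleton. In the nervous system they steer axons and set tissue boundaries, and they guide the migration of neural crest cells, the lineage from which melanocytes come. EPHA2 is a well-known receptor in melanoma, where it has been tied to invasion and drug resistance. Several EphA genes are long and lie in gene-poor regions, so that many of the peaks nearest to them are far away from any start site.

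Each library had between 26910189 and 45645294 counts in peaks. The cell type was checked at lineage genes by mean normalized counts, which are counts scaled to a common library size. The best promoter peak had 862 at SOX10 and 1290 at MITF, both melanocyte-lineage transcription factors. The epithelial gene EPCAM had 217, near the median of 232 over all promoter peaks, which is not limited to the best peak of each gene. The leukocyte gene PTPRC had no promoter peak.

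The sequences that carry the results are 4 promoters and 4 sites that changed. The promoters are the 250 bases upstream of the RefSeq start site of EPHA3 and EPHA2, which had strongly accessible promoters, of EPHA1, which had a weak one, and of EPHA8, which had no promoter peak. Each reads 5′ to 3′ in the direction of the gene on hg38, and capitals mark CpG dinucleotides.
EPHA3, plus strand, chr3:89107371-89107620: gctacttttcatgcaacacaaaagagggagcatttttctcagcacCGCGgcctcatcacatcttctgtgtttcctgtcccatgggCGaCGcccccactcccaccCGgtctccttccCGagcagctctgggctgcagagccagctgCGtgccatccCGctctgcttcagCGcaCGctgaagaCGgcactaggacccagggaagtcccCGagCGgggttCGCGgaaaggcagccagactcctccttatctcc
EPHA2, minus strand, chr1:16156070-16156319: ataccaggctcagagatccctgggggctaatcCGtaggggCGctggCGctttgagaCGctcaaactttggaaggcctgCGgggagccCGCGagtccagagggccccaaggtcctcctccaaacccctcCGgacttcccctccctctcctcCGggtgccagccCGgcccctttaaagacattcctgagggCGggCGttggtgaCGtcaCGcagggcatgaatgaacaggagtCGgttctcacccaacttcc
EPHA1, minus strand, chr7:143408857-143409106: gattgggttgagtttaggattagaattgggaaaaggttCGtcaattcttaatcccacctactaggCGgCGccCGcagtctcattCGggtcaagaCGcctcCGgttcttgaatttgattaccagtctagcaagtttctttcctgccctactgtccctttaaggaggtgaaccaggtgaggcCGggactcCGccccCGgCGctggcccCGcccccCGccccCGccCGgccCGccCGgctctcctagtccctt
EPHA8, plus strand, chr1:22563239-22563488: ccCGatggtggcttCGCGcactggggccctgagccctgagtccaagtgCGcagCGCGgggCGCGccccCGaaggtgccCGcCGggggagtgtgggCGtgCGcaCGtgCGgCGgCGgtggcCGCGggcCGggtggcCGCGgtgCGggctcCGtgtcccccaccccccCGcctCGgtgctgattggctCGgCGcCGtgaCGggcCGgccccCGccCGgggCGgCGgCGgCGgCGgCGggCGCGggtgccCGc

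The other 4 are the central 200 bases of peaks that changed, on the plus strand of hg38. They were chosen because they are the 2 peaks that rose and, among those that fell, the peak with the smallest adjusted p and the only promoter peak. Capitals mark the AP-1 word, TGACTCA or its reverse complement TGAGTCA.
EPHA5 distal site, higher, chr4:65046768-65046967: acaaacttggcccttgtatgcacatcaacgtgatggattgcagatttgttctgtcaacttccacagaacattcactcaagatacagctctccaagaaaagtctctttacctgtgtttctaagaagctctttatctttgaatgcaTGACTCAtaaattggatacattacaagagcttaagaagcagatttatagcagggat
EPHA3 distal site, higher, chr3:90062144-90062343: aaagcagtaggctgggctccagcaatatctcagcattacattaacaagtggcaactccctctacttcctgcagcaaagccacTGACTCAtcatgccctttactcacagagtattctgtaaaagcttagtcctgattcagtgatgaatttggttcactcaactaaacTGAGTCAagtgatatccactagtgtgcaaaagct
EPHA3 upstream site, lower, chr3:89105914-89106113: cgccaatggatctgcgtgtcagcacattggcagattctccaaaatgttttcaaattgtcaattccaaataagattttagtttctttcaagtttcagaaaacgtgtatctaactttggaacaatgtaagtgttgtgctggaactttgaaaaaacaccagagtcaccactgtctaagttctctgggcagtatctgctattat
EPHA4 intronic site, lower, chr2:221461987-221462186: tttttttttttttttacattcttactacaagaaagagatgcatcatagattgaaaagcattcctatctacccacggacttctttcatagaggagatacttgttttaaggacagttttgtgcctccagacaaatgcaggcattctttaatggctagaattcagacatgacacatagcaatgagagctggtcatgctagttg

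The promoters fell into an accessible and a weakly accessible set. A promoter peak was one centred within 3 kb of the gene start or of the start of a protein-coding transcript, and for each gene the one of highest mean count was taken. These peaks had the same width of 502 bp, so that their normalized counts compare per length. EPHA7 had the highest promoter count, with 1103, 1235 and 1125 in the EV libraries and 1103, 1146 and 1021 in the HMGB2OE libraries. EPHA3 followed with 1112, 1217 and 1046 in EV and 1032, 1034 and 912 in HMGB2OE. EPHA2 came next, with 873, 957 and 846 in EV and 915, 969 and 841 in HMGB2OE. EPHA7 and EPHA3 act in axon guidance, and the peaks of all 3 genes lay over the annotated start. EPHA4, which directs axons in the spinal cord, had 678, 741 and 694 in EV and 706, 684 and 618 in HMGB2OE, at a peak 618 bp inside the gene. The EPHA6 promoter peak had 599, 695 and 651 in EV and 677, 692 and 666 in HMGB2OE. EPHA5 had 536, 615 and 601 in EV and 579, 614 and 581 in HMGB2OE. Neighbours in this order overlapped in their 6 libraries, except that EPHA2 stood above EPHA4 in every library.

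A wide gap separated these 6 receptors from the rest. The promoter peak of EPHA10, a receptor with a catalytically inactive kinase domain, had 72.3, 61.1 and 85.4 in EV and 87.6, 90.1 and 84.4 in HMGB2OE. That of EPHA1 had 55.6, 55.1 and 63.2 in EV and 74, 72.6 and 83.3 in HMGB2OE. These lay at percentiles 21.6 and 16.1 of all tested promoter peaks by mean count, against 70.7 to 87.8 for the accessible set. The best peak of each receptor was ranked here among all promoter peaks and not among the best peaks of other genes, which can raise its percentile. EPHA8 had no promoter peak, and its nearest peak was centred 5704 bp upstream of its start. Its promoter window was nevertheless the richest in CpG of the 8 members matched to RefSeq (EPHA10 was not matched). It held 42 CpG and was 83.2% GC, and 1.38% of the 35116 RefSeq promoter windows held as many CpG. EPHA2 and EPHA3, with 15 CpG each, had far more accessible promoter peaks than EPHA1 with 17, so that the order of accessibility did not follow the CpG count among these genes. The EPHA2 and EPHA3 peaks covered the start, but the EPHA1 peak was centred 1088 bp from it, outside the window counted. The EPHA10 and EPHA6 peaks also lay off the annotated start.

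None of the 8 best promoter peaks passed the test for a change. A peak was called when its fold change was at least 1.5 and its Benjamini–Hochberg-adjusted p over all tested peaks was under 0.05. Log2 fold changes (HMGB2OE over EV) lay between -0.18 at EPHA3 and 0.40 at EPHA1. The EPHA3 promoter was lower in every HMGB2OE library than in any EV library, but its adjusted p was 0.213 (SE 0.0842 on the log2 scale). The EPHA1 promoter was higher in every HMGB2OE library, with an adjusted p of 0.263 (SE 0.204). At EPHA2 the difference was 0.026 (SE 0.0856), and leaving out EV replicate 3 or HMGB2OE replicate 2 turned its sign. At EPHA5 the difference was 0.014 (SE 0.0922), and its sign turned without EV replicate 1 or HMGB2OE replicate 2.

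**Figure D1:**
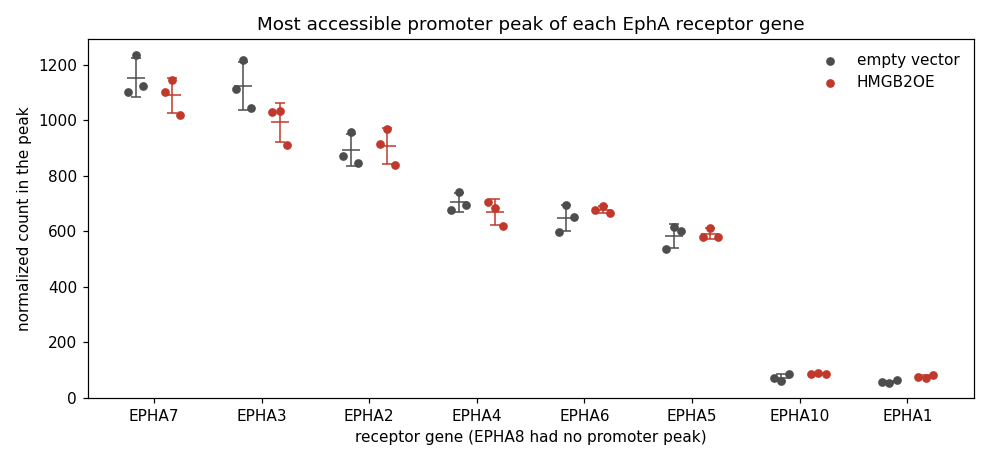
Normalized ATAC-seq counts in the most accessible promoter peak of 8 EphA receptor genes, ordered by mean. Points are libraries, bars are the mean and SD of 3 libraries, grey is empty vector and red is HMGB2OE. Counts of EPHA7, EPHA3, EPHA2, EPHA4, EPHA6 and EPHA5 lie at 536 or more in every library, those of EPHA10 and EPHA1 at 90.1 or less, and none of these peaks passed the test.

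Over all EphA peaks, 299 of 317 had enough counts to be tested. The 18 that had not were all assigned to EPHA3, with at most 21 counts in any library. Of the 299, 2 were called higher (0.669%) and 6 lower (2.01%). Among the 150117 peaks tested in all, calls went up at 1.87% and down at 1.44%, so that the share of rises was below the background and that of falls a little above it. Without the fold limit, 12 members (4.01%) passed, 2 higher and 10 lower, against 6.47% of all tested peaks. The libraries of the 2 conditions did not overlap at 29 members that were higher and 35 that were lower in HMGB2OE, together 21.4%, against 25.1% of all tested peaks. None of these shares was tested against the background. Rises numbered 1 without EV replicate 2 and 5 without EV replicate 3, and falls numbered 2 without EV replicate 1 and 3 without HMGB2OE replicate 2 or 3. The median log2 fold change was -0.037 over the members and -0.0049 over all tested peaks. In the bulk libraries a change in all cells and a change in a share of them cannot be told apart.

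The 5 genes with calls were the long ones in gene-poor DNA. They had 0 to 22 tested peaks of other genes within 1 Mb of the gene start, against 102 to 199 for the other 4. These 5 genes also held the most peaks of their own, with 28 to 98 tested in each, against 3 to 18 in each of the other 4. Whether calls go with length or gene-poor DNA, apart from this number of peaks, was not tested. EPHA3 (ENSG00000044524.11, plus strand, chr3:89107621-89482134) held 116 peaks, 15 of them in the gene, with log2 fold changes from -1.14 to 0.88 and a median of -0.19 over the 98 tested. EPHA4 (ENSG00000116106.12, minus strand, chr2:221418027-221574202) held 42, from -0.87 to 0.74 with a median of 0.022. EPHA5 (ENSG00000145242.14, minus strand, chr4:65319563-65670495) held 28, from -0.64 to 0.85 with a median of -0.014. Medians near 0 thus went with wide ranges. EPHA6 (ENSG00000080224.18, plus strand, chr3:96814581-97761532) held 39, from -1.12 to 1.03 with a median of -0.041. EPHA7 (ENSG00000135333.15, minus strand, chr6:93240020-93419687) held 57, of which 3 were in the gene, from -0.95 to 0.84 with a median of 0.024. The 4 genes without a called peak were shorter. EPHA1 (ENSG00000146904.9, minus strand, chr7:143390289-143408856) held 9 peaks, from -0.012 to 0.73 with a median of 0.20. EPHA2 (ENSG00000142627.13, minus strand, chr1:16124337-16156069) held 18 and EPHA10 (ENSG00000183317.17, minus strand, chr1:37713880-37765133) held 5, the latter from -0.28 to 0.27 with a median of 0.017. EPHA8 (ENSG00000070886.12, plus strand, chr1:22563489-22603595) held 3, from 0.080 to 0.55 with a median of 0.54.

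**Figure D2:**
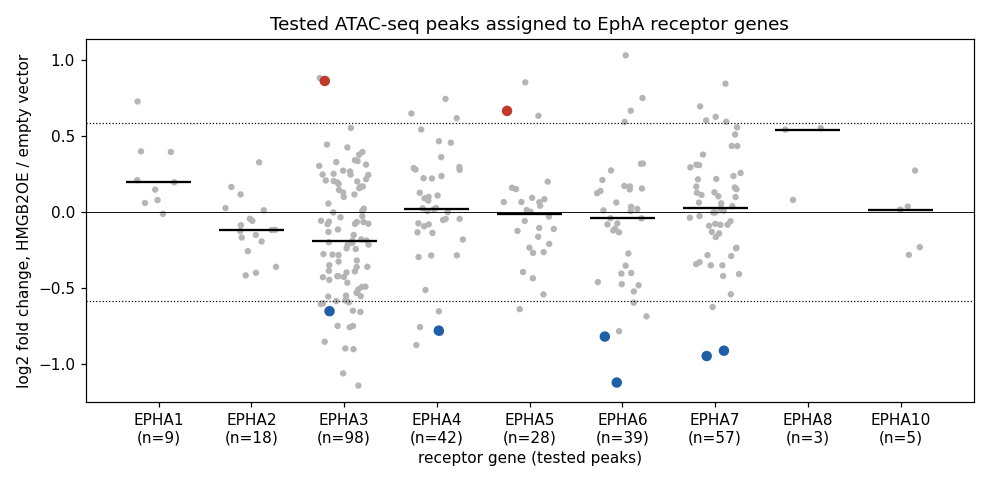
Log2 fold change (HMGB2OE over empty vector, y axis) of each of the 299 tested peaks by receptor gene (x axis, with the number of tested peaks). Black lines are medians, red points are the 2 peaks called higher, blue points are the 6 called lower and dotted lines mark a fold of 1.5. The called peaks belong to EPHA3, EPHA4, EPHA5, EPHA6 and EPHA7.

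The 2 rises lay far beyond the ends of EPHA5 and EPHA3. The peak at chr4:65046618-65047119, intergenic and 273 kb past the end of EPHA5, had 258, 310 and 284 normalized counts in EV and 425, 472 and 463 in HMGB2OE. Every HMGB2OE library was above every EV library, and the log2 fold change was 0.67 (SE 0.108, adjusted p = 0.000276). EPHA5 is a brain-enriched receptor whose start was 624 kb away. The other nearest gene, TECRL, began 637 kb away, so that the assignment to EPHA5 rests on a small difference in distance. This was the call with the smallest adjusted p among the members and passed under all 15 alternatives, with log2 fold changes of 0.61 to 0.74.

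The peak at chr3:90061994-90062495, intergenic and 580 kb past the end of EPHA3, had 51.4, 42.2 and 42.1 in EV and 81.6, 79.2 and 84.4 in HMGB2OE. The conditions did not overlap, and the log2 fold change was 0.86 (SE 0.213, adjusted p = 0.0126). EPHA3 is a receptor of the developing nervous system and heart. The call was lost without EV replicate 2 (adjusted p = 0.0587) and without HMGB2OE replicate 1 (adjusted p = 0.051). As the printed sequences show, the EPHA5 peak held an AP-1 word and the EPHA3 peak held 2 of them.

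The 6 falls were at EPHA3, EPHA4, EPHA6 and EPHA7. At chr3:89105764-89106265, centred 1.61 kb upstream of the EPHA3 start, counts were 190, 144 and 150 in EV and 110, 103 and 91.2 in HMGB2OE. The libraries did not overlap, and the log2 fold change was -0.65 (SE 0.156, adjusted p = 0.00988). It was the only one of 20 tested EphA promoter peaks that was called, while the peak over the EPHA3 start was not. Over all 30373 tested promoter peaks 0.695% were called higher and 0.596% lower. The call was lost without EV replicate 1 (adjusted p = 0.0672) and without HMGB2OE replicate 3, where the fold fell short of the limit (log2 fold change -0.58).

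The EPHA4 fall was intronic, at chr2:221461837-221462338 and 112 kb from the gene start. It had 185, 237 and 151 in EV and 130, 106 and 99.1 in HMGB2OE, and the libraries did not overlap. The log2 fold change was -0.78 (SE 0.16, adjusted p = 0.00298). Without EV replicate 2 the fold fell below the limit (log2 fold change -0.58, adjusted p = 0.0593).

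EPHA6, one of the longest genes of the family and expressed mainly in brain, had a fall in an intron and one upstream. The intronic peak at chr3:96959786-96960287 had 103, 95.5 and 85.4 in EV and 57, 40.9 and 64.2 in HMGB2OE. Its log2 fold change was -0.82 (SE 0.207, adjusted p = 0.0146), with no overlap between conditions. It did not pass without EV replicate 2 (adjusted p = 0.053) or HMGB2OE replicate 2 (adjusted p = 0.0973). The peak at chr3:96483084-96483585, 331 kb upstream, had 87.6, 80.9 and 36.3 in EV and 34.9, 30.9 and 28.1 in HMGB2OE. EV replicate 3 lay close to the HMGB2OE libraries there, and 48.1% of the 31-base words of the peak occurred more than once in hg38. The log2 fold change was -1.12 (SE 0.284, adjusted p = 0.0153), and it did not pass without EV replicate 1 or 2 or HMGB2OE replicate 2 or 3 (adjusted p 0.0519 to 0.107).

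Both EPHA7 falls lay beyond the gene's end. EPHA7 guides cortical and retinal axons. The peak at chr6:92945809-92946310, 294 kb past the end, had 69.5, 55.1 and 63.2 in EV and 31.5, 32.5 and 32.6 in HMGB2OE. The conditions were well apart, and the log2 fold change was -0.95 (SE 0.253, adjusted p = 0.0211). It failed the threshold without any 1 library other than EV replicate 2 (adjusted p 0.0524 to 0.0758), with log2 fold changes that stayed between -1.04 and -0.87. The peak at chr6:92756886-92757387, 483 kb past the end, had 95.9, 80.9 and 45.6 in EV and 40, 50 and 25.9 in HMGB2OE. Its libraries overlapped between conditions, and the log2 fold change was -0.91 (SE 0.268, adjusted p = 0.0365). This call was the least firm of the 8. It did not pass the DESeq2 test (adjusted p = 0.07), with offsets for GC content (log2 fold change -0.64, adjusted p = 0.128), or without EV replicate 1 or 2 or HMGB2OE replicate 1 or 3 (adjusted p 0.1 to 0.167). The peak was 28.5% GC.

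**Figure D3:**
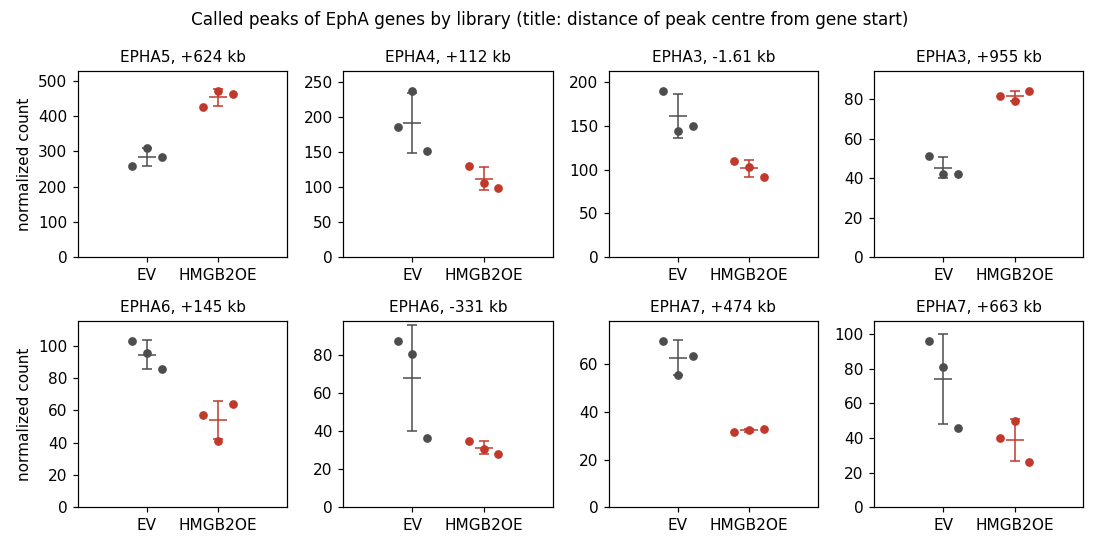
Normalized counts by library in the 8 called EphA peaks, each panel titled with the gene and the distance of the peak centre from the gene start in kb. Grey points are empty vector (EV), red points are HMGB2OE, and bars are the mean and SD of 3 libraries. The EPHA5 peak at +624 kb has EV libraries at 258 to 310 and HMGB2OE libraries at 425 to 472, while the EPHA7 peak at +663 kb has overlapping libraries.

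A further 4 members passed on adjusted p but not on fold, all lower in HMGB2OE, and they were picked out here after their values were seen. With no fold limit, 10 of the 299 members and 4546 of the 150117 tested peaks passed as lower. As higher, 2 members and 5164 of all tested peaks passed, and the directions were not tested against the background. An EPHA2 peak at chr1:16122828-16123329, 1.26 kb past the gene's end, had 559, 662 and 591 in EV and 479, 475 and 420 in HMGB2OE. Its log2 fold change was -0.40 (SE 0.098, adjusted p = 0.0121). Another at chr1:16117332-16117833, 6.75 kb past the end, had 263, 261 and 239 in EV and 180, 189 and 204 in HMGB2OE (log2 fold change -0.42, SE 0.121, adjusted p = 0.0341). The libraries of the conditions were apart at both EPHA2 sites. An EPHA7 peak 257 kb upstream of the start, at chr6:93676580-93677081, went from 409, 422 and 383 to 285, 292 and 257 (log2 fold change -0.54, adjusted p = 0.00223). An EPHA6 peak at chr3:95721806-95722307, over 1 Mb upstream of the start, went from 411, 354 and 317 to 269, 294 and 250 (log2 fold change -0.40, adjusted p = 0.0325). The EPHA7 peak kept an adjusted p under 0.05 in all 15 alternatives. The EPHA2 peak nearer to the gene did not pass without EV replicate 2 (adjusted p = 0.0951) or HMGB2OE replicate 3 (adjusted p = 0.057). The farther EPHA2 peak did not pass with DESeq2 (adjusted p = 0.0647) or without EV replicate 1 or 2 or HMGB2OE replicate 1 or 2 (adjusted p 0.0817 to 0.152). The EPHA6 peak did not pass with DESeq2 (adjusted p = 0.0523), with GC offsets (adjusted p = 0.0524), or without EV replicate 1 or 2 or HMGB2OE replicate 1 or 3 (adjusted p 0.0719 to 0.145).

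The most accessible member was in an intron of EPHA2, at chr1:16145408-16145909. It had 1055, 1243 and 1380 in EV and 1145, 1082 and 1151 in HMGB2OE. The conditions overlapped, and the log2 fold change was -0.13 (SE 0.0871, adjusted p = 0.438). EPHA2 had the highest median count of the 9 genes (254 over 18 peaks), and 13 of its 18 peaks had a log2 fold change below 0. Their log2 fold changes lay between -0.42 and 0.33, with a median of -0.12, and the lowest 2 were those just described past the gene's end.

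The largest difference that was not called was at an EPHA3 peak, chr3:90715261-90715762, with 19.5, 2.58 and 14 in EV and 1.7, 3.34 and 11.3 in HMGB2OE. Its log2 fold change of -1.14 had an SE of 0.76 (adjusted p = 0.418). The spread inside EV was wider than the difference between conditions. It belonged to a long tail of EPHA3 peaks towards the centromere of chromosome 3.

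The family's median was lower with that tail than without it. EPHA3 held 116 peaks, of which 87 lay beyond the gene's end and 51 by more than 1 Mb, up to 2060 kb away. Of the 51, 35 had more than 50% of their 31-base words repeated elsewhere in hg38, and EV replicate 1 was the highest of the 6 libraries at 34. Their summed normalized counts were 1640, 477 and 1130 in EV and 742, 543 and 1270 in HMGB2OE, so that libraries of 1 condition differed more than the conditions did. Of the 51, the 35 with enough counts to be tested had a median log2 fold change of -0.49 and no call. These are not the same 35 as the repeated ones. The other 63 tested EPHA3 peaks had a median of -0.034. Without the tail the median over the remaining 264 members was 0.0083 in place of -0.037, and all 8 calls were outside it. Over the 255 tested members with at most 50% repeated words, inside and outside the tail, it was -0.00079. Which trait of the peaks goes with the lower median was not tested. The median over all members also moved to 0.015 when EV replicate 1 was left out.

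**Figure D4:**
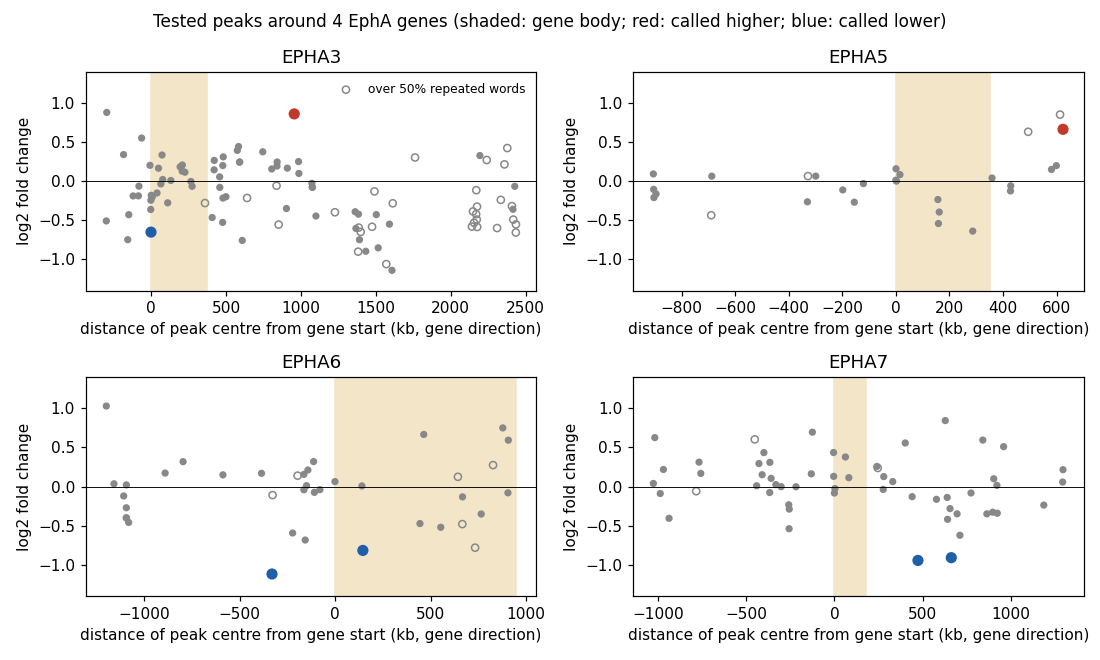
Log2 fold change of tested peaks against the distance of their centre from the gene start, in kb in the direction of the gene, for EPHA3, EPHA5, EPHA6 and EPHA7. Shading is the gene body, red and blue points are called higher and lower, and open circles are peaks with over 50% repeated 31-base words. Open circles crowd the far end of EPHA3, and no called peak is one of them.

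The members were poorer in GC than peaks in general (median 39.8% against 46.2%) and had lower counts (median 64.7 against 105). Of the 151 tested members under 40% GC, 4 were called lower and 1 higher. Over all peaks of that class 3.12% were called lower and 0.946% higher, with a median log2 fold change of -0.083, while that of the members was -0.11. Of the 82 members from 40% to under 50% GC, 2 were called lower and 1 higher, where 1.43% of all peaks were called lower and 2.32% higher. Of the 66 members of 50% GC or more, none was called. Over all peaks of that class 1.87% were called higher and 0.466% lower. The part of GC content in these falls was not tested beyond the GC offsets, under which the other 7 called members still passed.

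AP-1 words were in 25.4% of the tested members and 28% of all tested peaks, and in 4 of the 8 called members. These were both rises, the EPHA4 fall (outside its central 200 bases) and the upstream EPHA6 fall. The TCF7 word ATCAAAG, searched on both strands, was in 10.7% of members and 6.85% of all peaks, and the SOX9 word ACAAAGG in 11% and 12.1%. Among the called members 2 held the TCF7 word and 0 the SOX9 word. A word is a match of 7 letters and not a measured binding site.

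Summed over all its peaks, no receptor gene passed the test across genes, in which 9.23% of 18009 protein-coding genes reached an adjusted p under 0.05. The smallest adjusted p values belonged to EPHA1 and EPHA8, the genes with weak or no promoter peaks. Summed counts of EPHA1 were 708, 587 and 659 in EV and 770, 699 and 830 in HMGB2OE, which overlap. The log2 fold change was 0.24 (SE 0.084, 95% confidence interval 0.063 to 0.42, adjusted p = 0.0809), and 8 of its 9 peaks had a value above 0. Those of EPHA8 were 251, 226 and 306 in EV and 345, 307 and 331 in HMGB2OE, which do not overlap. The log2 fold change was 0.34 (SE 0.12, interval 0.082 to 0.59, adjusted p = 0.0884). Each passed with only 1 choice of library left out, EPHA1 without HMGB2OE replicate 2 (adjusted p = 0.0395) and EPHA8 without EV replicate 3 (adjusted p = 0.0218). With any other library left out neither passed, and without EV replicate 2 the adjusted p was 0.349 at EPHA1 and 0.356 at EPHA8. EPHA1 and EPHA8 were the only 2 of the 9 receptors under 0.05 before adjustment, and DESeq2 gave adjusted p = 0.084 and 0.0969.

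Other peaks around EPHA1 also had a median above 0. The other 115 tested peaks within 1 Mb of the EPHA1 start had a median log2 fold change of 0.14, with 9 called higher and 0 lower, and 67% were above 0, against 49.2% of all tested peaks. Of the 9, 6 belonged to EPHB6, a relative with an inactive kinase. Without EPHB6 the remaining 103 neighbours had a median of 0.098 and 3 called higher, where 1.87% of all tested peaks were called higher. The 9 peaks of EPHA1 itself had a median of 0.20. At EPHA8 the 152 other peaks within 1 Mb had a median of 0.0083, against 0.54 for its own 3 peaks. The EPHA8 peak upstream of the start had 86.2, 58.5 and 92.4 in EV and 117, 118 and 106 in HMGB2OE (log2 fold change 0.55, SE 0.183, adjusted p = 0.0664), and its libraries did not overlap. The part of a regional difference in the EPHA1 value was not tested.

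The sums of the other 7 receptors differed little between conditions. EPHA2 had 8284, 8820 and 9270 in EV and 8267, 8209 and 8688 in HMGB2OE, with a log2 fold change of -0.069 (interval -0.16 to 0.022). EPHA3 had 12796, 11503 and 11652 in EV and 11602, 11556 and 11646 in HMGB2OE, with -0.046 (-0.14 to 0.044). Their libraries overlapped between conditions, and the EPHA3 value turned to 0.0029 without EV replicate 1. EPHA4 had 6878, 7107 and 6995 in EV and 7241, 6938 and 7102 in HMGB2OE, with 0.020 (-0.057 to 0.098). EPHA5 had 4194, 4163 and 3948 in EV and 4129, 4429 and 4255 in HMGB2OE, with 0.058 (-0.029 to 0.15). The rise of the distal EPHA5 site was thus not seen in the gene as a whole. EPHA7 had 6367, 6461 and 6220 in EV and 6204, 6288 and 5939 in HMGB2OE, with -0.047 (-0.13 to 0.033). EPHA10 had 457, 412 and 454 in EV and 396, 430 and 501 in HMGB2OE, with 0.0042 (-0.21 to 0.21) and a sign that turned when library size alone was used for scaling. EPHA6 had 5679, 5000 and 5374 in EV and 5115, 5244 and 6048 in HMGB2OE, with 0.032 (-0.087 to 0.15). This value turned negative without EV replicate 2 (-0.018), without HMGB2OE replicate 3 (-0.044) and without its repeated peaks (-0.0038). Its strongest peak, 64.8% repeated and 197 kb upstream, ranged from 792 to 1700 across libraries. A 1.5-fold change in the summed accessibility of any of these 7 genes lies outside its interval.

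**Figure D5:**
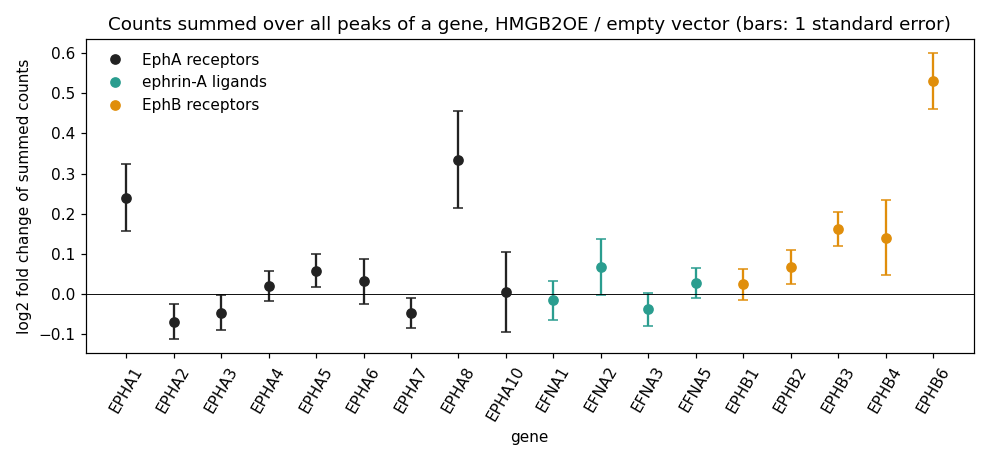
Log2 fold change of counts summed over all peaks of a gene (HMGB2OE over empty vector), with bars of 1 standard error, for the 9 EphA receptors, 4 ephrin-A ligand genes and 5 EphB receptor genes. EPHA1 at 0.24 and EPHA8 at 0.34 stand above the other EphA genes without passing the test. EPHB6 at 0.53 and EPHB3 at 0.16 passed it on adjusted p, both short of a 1.5-fold change.

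The partners of the EphA receptors were counted in lists, to be read beside the 1.87% higher and 1.44% lower of all tested peaks. The ephrin-A ligand genes, whose membrane-anchored products bind EphA receptors, had 80 tested peaks, with 2 called higher and 2 lower (2.5% each) and a median log2 fold change of 0.0048. All 4 were at EFNA5, which held 59 of the peaks, and its sum differed by 0.028 (adjusted p = 0.687). EphB receptor genes had 70 tested peaks with 7 higher (10%) and 0 lower, and a median of 0.11. EPHB6 held 6 of them, with a sum that rose by 0.53 (SE 0.069, adjusted p = 0.000193), and EPHB3 held 1, with a sum that rose by 0.16 (SE 0.0432, adjusted p = 0.0254). Ephrin-B ligand genes had 51 tested peaks and 1 call (1.96%), a rise at EFNB2. The list of EphA signalling partners (guanine nucleotide exchange factors, adaptors, kinases and co-receptors) had 334 tested peaks, with 5 higher (1.5%) and 2 lower (0.599%), both shares below those of all tested peaks. The rises were at NTRK2, a neurotrophin receptor with 3, RET, a receptor kinase of neural crest derivatives with 1, and NCK2, an adaptor of the cytoskeleton with 1. The falls were at VAV3 and SIPA1L1. Among the gene sums of this list RET rose (0.29, SE 0.0576, adjusted p = 0.00499) and CRK fell (-0.16, SE 0.0468, adjusted p = 0.0413). NGEF and CHN1, 2 intracellular regulators that work with EphA4 in axon guidance, had log2 fold changes of the sum of -0.012 (adjusted p = 0.896) and -0.040 (adjusted p = 0.646).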

How the data were processed

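The 6 libraries were A375 ATAC-seq, 3 of empty vector (EV) and 3 of HMGB2 overexpressing (HMGB2OE) cells, grouped by GEO's labels. The authors' reads were trimmed (Trim Galore 0.6.7, cutadapt 4.0), mapped to hg38 by Bowtie 2 and freed of duplicates by Picard. Their peaks came from MACS2, with public melanocyte data as the control, and were merged into an atlas free of blacklisted regions. They deposited the raw counts per peak from featureCounts, with no normalization or pooling. The shift of reads for Tn5 and the treatment of reads with several alignments are not given in the sources used here, and the latter could change counts in repeated sequence. Coordinates are those of the deposited table.

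Counts of all 152800 peaks were tested with edgeR 4.0.16 (TMM, filterByExpr, quasi-likelihood F test, no covariate) in R 4.3.3, which kept 150117 peaks, and p-values were adjusted over all of them by the Benjamini–Hochberg method. A call needed an adjusted p under 0.05 and a fold of at least 1.5. Counts were also summed per protein-coding gene and tested likewise (18009 genes). A gene sum is said to pass at an adjusted p under 0.05, with no fold limit. Each standard error is the size of the log2 change over the root of its F value. Normalized counts are scaled by effective library size to the mean library. Intervals cover counting and library error only. Tested on simulated data, the peak fit recovered 97% of 200 peaks changed by 1.5 on the log2 scale, with 2 false calls, and the gene fit 72% of 200 genes changed by 0.5, with 8 false calls.

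The alternatives scaled by library size, by DESeq2's size factors or by loess, used DESeq2 1.42.0 (Wald test), dropped the count filter or asked for 10 counts per library, or added a replicate block or GC offsets. The rest were other fold limits and each library left out. Leaving out members with over 50% repeated 31-base words was added after the data were seen. Promoter sequences came from RefSeq (hg38; 8 of 9 genes matched) and peak sequences from hg38. The members and lists were chosen with earlier results of these data known. Named were all 9 receptors, every called member, the most accessible member, the largest difference not called and the list genes with the most calls.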

Additional observations from a re-analysis of the deposited data

How the results depend on the processing

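The number of EphA peaks called higher was 2 in the main analysis, 5 with a replicate block and 5 with GC offsets and the block, and between 1 and 5 with 1 library left out (1 without EV replicate 2, 5 without EV replicate 3). The number called lower was 6, and between 2 and 6 with 1 library left out (2 without EV replicate 1), and it was 10 both with a lower fold limit and with none. The median log2 fold change ranged from -0.0623 to 0.0149 with 1 library left out, and was 0.0021 with a minimum of 10 counts per library. Same-numbered libraries correlated at -0.0884, 0.191 and 0.128 in their deviations from the group means. Differently numbered ones correlated at -0.27 to 0.158. Whether the replicate numbers mark a pairing of the libraries is not stated and was not tested. With the block the EPHA1 sum was 0.236 and the EPHA8 sum 0.339, both past the threshold (adjusted p = 0.0335 and 0.0473). With 1 library left out, the sum ranged from 0.163 to 0.303 at EPHA1, from -0.0765 to 0.0029 at EPHA3, from -0.0443 to 0.0766 at EPHA6, from 0.226 to 0.467 at EPHA8 and from -0.0875 to 0.0775 at EPHA10. The EPHA6 sum was -0.0038 without repeated sequence, and the EPHA10 sum was -0.0053 with library size only. The EPHA2 promoter peak ranged from -0.0229 to 0.0826 and the EPHA5 promoter peak from -0.0389 to 0.0541. The causes were not tested. Loess, GC offsets and count filters were run on peaks only. The 18 EPHA3 peaks with too few counts to test (at most 21) give no value, and the cause of their low counts was not tested.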
